A study of Arabidopsis thaliana with 4 samples.

Results

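Replicate set 1 was compared with replicate set 2 across the whole transcriptome of Arabidopsis thaliana seedlings. The sets were formed from the replicate number in the array titles, so that all 4 arrays of the series were used, 2 per set. Each set held 1 array of the line 35S-JMJ30-HA, in which the 35S promoter drives an HA-tagged JMJ30, and 1 array of the wild type (WT), both in the Col-0 background. The transgenic plants are described as late flowering, the labels give 1 transgenic line, and all plants were whole seedlings grown on soil at 22 °C in 16 hour light and 8 hour dark and taken 13 days after germination with no treatment. All 32627 loci of the array were described, each by its normalized intensity, a measure of transcript level with no absolute unit. The hour of harvest, and what the plants of a set shared beyond the number, are not given in the labels used here.

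JMJ30 encodes a histone demethylase with a JmjC domain whose own transcript cycles with the circadian clock. The plant clock is a network of mutually repressing transcription factors, in which morning genes such as CCA1 and LHY and evening genes such as TOC1 and GI peak at opposite times of day, so that the level of many transcripts depends on the hour at which plants are taken. Growing seedlings also devote much transcription to making ribosomes and copying DNA, and the levels of genes for defence, nutrients and heat shock vary with the surroundings of the plant.

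JMJ30, listed as JMJD5, was higher on the 35S-JMJ30-HA array than on the WT array of its own set, with 1054 and 705 in set 1, against 721 and 567 in set 2 for the 2 genotypes in the order 35S-JMJ30-HA, WT, which is kept for every pair of intensities below. Median intensity per array was 25.6 to 26.6. Mean log2 levels had 2 modes with a valley at an intensity of 14.6, and 17732 loci had a mean at or above it. No detection call was given, so the valley describes a level only. All markers of dry seed (0 of 21 loci above the valley) lay below it, and 5 of 32 root marker loci lay above it. Fewer cells of a type and less RNA per cell cannot be told apart in whole seedlings.

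Differences are log2 of set 1 minus log2 of set 2 with the genotype as a block, fitted with limma, and a positive value means higher in set 1. Over all 32627 loci, 4 passed an adjusted p below 0.05 (0.0123%), and 5044 had an unadjusted p below 0.05. All 4 were higher in set 1: TAT3, FAMT, PCC1 and AT3G22235, of which the first 3 are on the hormone lists set aside here. By its locus code AT3G22235 lies close to PCC1 (AT3G22231), a member of the salicylic acid list. It is therefore not clearly separate from that list, and whether the 2 loci share signal was not tested. With any 1 array left out and the set as the single term, 0 loci passed, and 0 passed when transcript models were averaged or arrays quantile normalized. When the fit was restricted to the 17732 loci above the valley, 1854 passed (10.5%), 831 higher (4.69%) and 1023 lower in set 1 (5.77%), and leaving out 1 array gave 198 to 1521. Simulated data showed that with 1 residual degree of freedom this test makes more false calls than its threshold allows. Counts at an adjusted p below 0.01, which 464 loci passed, are therefore given beside those of the gene lists. Below, a called locus is one that passed at 0.05 among the loci above the valley, with the adjusted p over those loci. Counts of called loci in a list are to be read beside the shares over all those loci, 4.69% higher and 5.77% lower in set 1.

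A description without a test was used beside these calls, namely a difference of at least 2-fold in the same direction in both genotypes with the higher set above the valley. It held for 229 loci higher (0.702%) and 181 loci lower in set 1 (0.555%), while 3 loci were at least 2-fold apart in opposite directions. The jasmonate, salicylic acid and abscisic acid lists held 29 of the 229 and 9 of the 181, which left 200 and 172 loci. In no list at all were 176 and 113. For comparison, 4 loci were at least 2-fold apart between the genotypes in both sets, and 0 of 32627 passed in the genotype fit over all loci, where 1961 had an unadjusted p below 0.05. Above the valley 3 loci passed in the genotype fit (0.0169%).

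**Figure D1:**
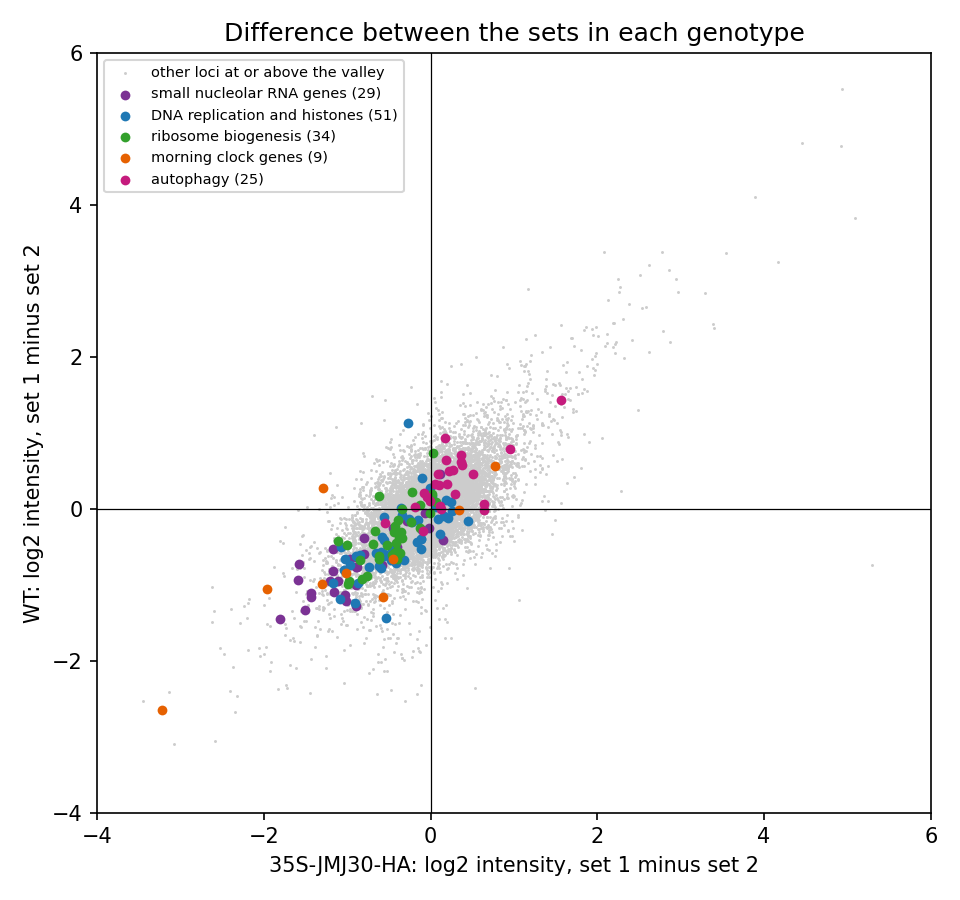
Difference between the sets in the 35S-JMJ30-HA arrays (x axis) and in the WT arrays (y axis), in log2 intensity, 1 point per locus with a mean at or above the valley. Coloured points are members of 5 gene lists, with the number of loci drawn. Small nucleolar RNA, DNA replication, ribosome biogenesis and morning clock genes lie mostly below 0 on both axes, and autophagy genes mostly above 0.

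The loci furthest apart were read without the hormone lists. Among the 15 with the largest difference higher in set 1, CSLA01, a cellulose synthase-like protein of the mannan synthase family, had 197 and 137 in set 1, against 5.75 and 9.70 in set 2 (log2 difference 4.46, SE 0.34). Both set 1 arrays lay far above both set 2 arrays, whose values were below the valley, so that the size of the difference depends on values near background. DIN11, named for its induction in the dark, had 65.1 and 47.1 in set 1, against 5.58 and 4.58 in set 2. FLOT1, a flotillin of membrane microdomains, had 58.2 and 62.8 in set 1, against 5.94 and 8.77 in set 2, and XBAT34, a RING-type ubiquitin ligase with ankyrin repeats, had 146 and 177 in set 1, against 23.8 and 19.2 in set 2. XTH25, of the family that cuts and rejoins xyloglucan in cell walls, had 85.3 and 148 in set 1, against 17.95 and 18.25 in set 2. TPS04, the synthase of geranyllinalool, also known to respond to jasmonate, had 30.7 and 26.6 in set 1, against 4.49 and 3.36 in set 2. That the sets do not overlap at these genes follows from how they were chosen. The set 2 values of DIN11, FLOT1 and TPS04 also lay below the valley. Genes that respond to jasmonate or salicylic acid may remain among these loci, since the hormone lists hold chosen symbols only.

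Among the 15 loci with the largest difference higher in set 2, AT2G26695 had 17.01 and 14.5 in set 1, against 144 and 124 in set 2 (log2 difference -3.09, SE 0.16). ERF53, an ethylene response factor, had 28.1 and 47.2 in set 1, against 308 and 273 in set 2. The U-box ubiquitin ligase PUB19 had 6.05 and 5.20 in set 1, against 37.1 and 29.5 in set 2, and its relative PUB18 had 4.86 and 9.43 in set 1, against 20.6 and 27.9 in set 2. The laccase LAC2 had 5.16 and 6.02 in set 1, against 23.2 and 28.2 in set 2 and the protein kinase CIPK20 had 2.99 and 4.72 in set 1, against 27.1 and 28.4 in set 2. AT3G21670 (NPF6.4), a member of the nitrate and peptide transporter family, had 37.3 and 31.1 in set 1, against 189 and 199.5 in set 2. The direction on all arrays follows from how these genes were chosen, except for PUB18, which was added after its values were seen. The set 1 values of PUB19, PUB18, LAC2 and CIPK20 lay below the valley, so the size of their differences rests on values near background. With values under the valley raised to it, the difference was 2.26-fold for PUB19, 1.64-fold for PUB18, 1.75-fold for LAC2 and 1.896-fold for CIPK20. The hormone lists hold chosen symbols only, so genes that respond to abscisic acid or drought may remain among these loci. That list lay in the same direction, with 17 of 48 loci above the valley called lower and 2 higher in set 1. Whether the loci named here belong with it was not tested.

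**Figure D2:**
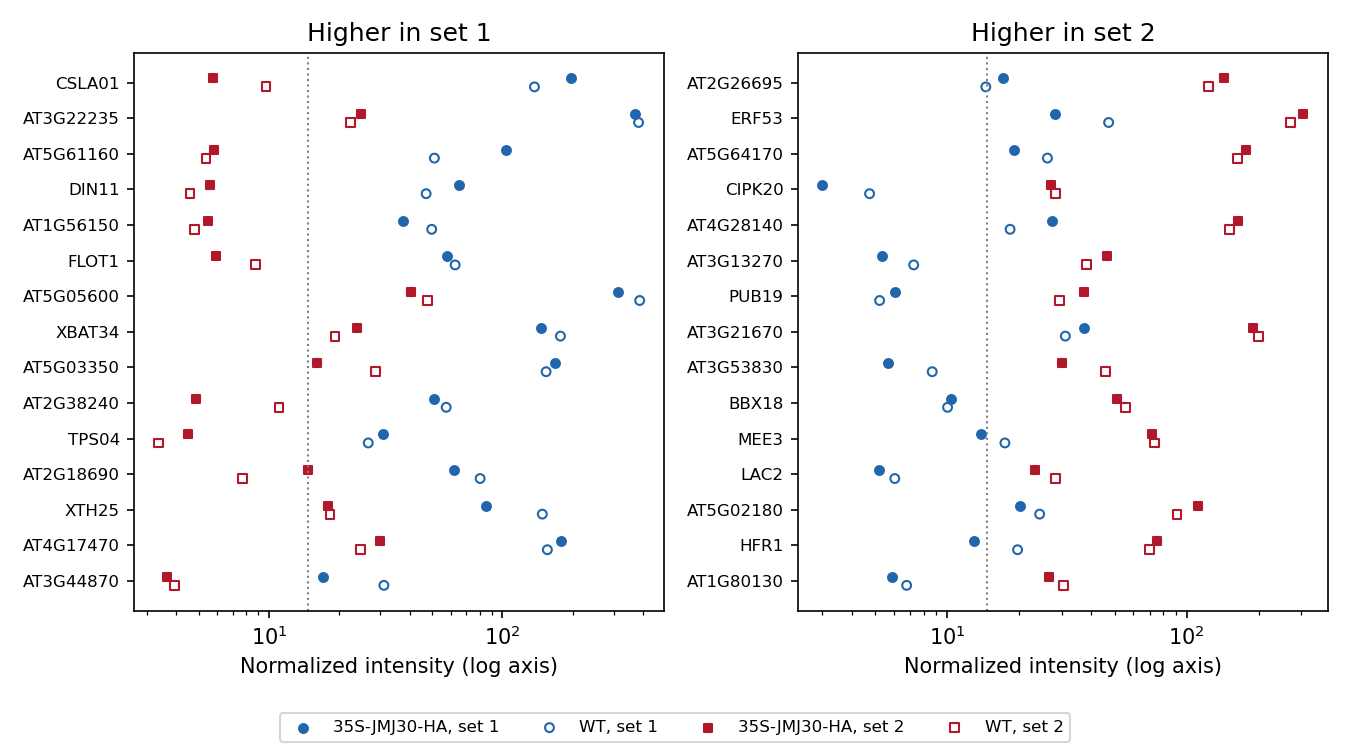
Normalized intensity (log axis) of the 15 loci furthest apart in each direction outside the hormone lists. Circles are set 1 and squares set 2, filled symbols are 35S-JMJ30-HA and open symbols WT, and the dotted line is the valley at 14.6. The loci were chosen for sets that do not overlap, and many lie below the valley in the lower set.

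Several genes of the circadian clock were lower in set 1. Of 9 morning clock loci above the valley, 6 were called lower and 1 higher in set 1 (4 lower and 0 higher at 0.01), with a median log2 difference of -0.86, beside -0.01 over all loci above the valley. LNK1 (AT5G64170), a coactivator that links light to the clock, had 19.0 and 26.2 in set 1, against 177 and 164 in set 2 (log2 difference -2.93, SE 0.21, limma adjusted p = 6.12e-04). LNK2 (AT3G54500) had 106 and 146 in set 1, against 263 and 289.6 in set 2, and EPR1 (AT1G18330), a MYB factor related to CCA1, had 28.4 and 59.6 in set 1, against 111 and 124 in set 2. The repressor PRR7 had 396 and 496 in set 1, against 799 and 893 in set 2. CCA1 and LHY, close relatives that act together in the morning, differed in opposite directions and at levels near the valley. CCA1 had 14.4 and 10.3 in set 1, against 19.7 and 16.3 in set 2, and LHY had 18.8 and 20.01 in set 1, against 11.1 and 13.6 in set 2 (limma adjusted p = 0.0481 for CCA1 and 0.0285 for LHY).

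Of 13 evening clock loci above the valley, 4 were called lower and 1 higher in set 1 (3 lower and 0 higher at 0.01), with a median of -0.23. The median over all 16 listed loci was -0.17 and changed sign to 0.01 without the 35S-JMJ30-HA arrays, so the list as a whole has no settled direction. GI, which stabilizes the photoreceptor ZTL and promotes flowering, had 96.3 and 116 in set 1, against 374 and 331 in set 2 (log2 difference -1.74, SE 0.19, limma adjusted p = 0.00202). BBX18, a B-box protein of light signalling, had 10.3 and 10.01 in set 1, against 51.4 and 55.4 in set 2, and PRR5 had 272 and 344 in set 1, against 639.8 and 685 in set 2. The set 1 values of BBX18 lay below the valley, so the size of its difference rests on values near background. ELF4, of the evening complex, had 178 and 171 in set 1, against 302 and 301 in set 2. TOC1 did not pass, with 537 and 673 in set 1, against 700.0 and 707 in set 2 (limma adjusted p = 0.364). Among 15 outputs of the clock at dawn and dusk, 6 were called lower and 1 higher in set 1 (5 and 0 at 0.01). CDF3, a DOF factor of the flowering pathway, had 76.1 and 93.5 in set 1, against 244 and 310.4 in set 2, TZP had 43.1 and 53.8 in set 1, against 164 and 157 in set 2, STO, also a B-box protein, had 115 and 127 in set 1, against 290.1 and 309 in set 2, and SIGE, a sigma factor of chloroplast transcription, had 38.1 and 37.7 in set 1, against 89.9 and 90.12 in set 2. Flowering time regulators had 1 call among 21 loci above the valley and 0 at 0.01, TEM1, with 68.4 and 76.4 in set 1, against 38.8 and 48.7 in set 2.

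**Figure D3:**
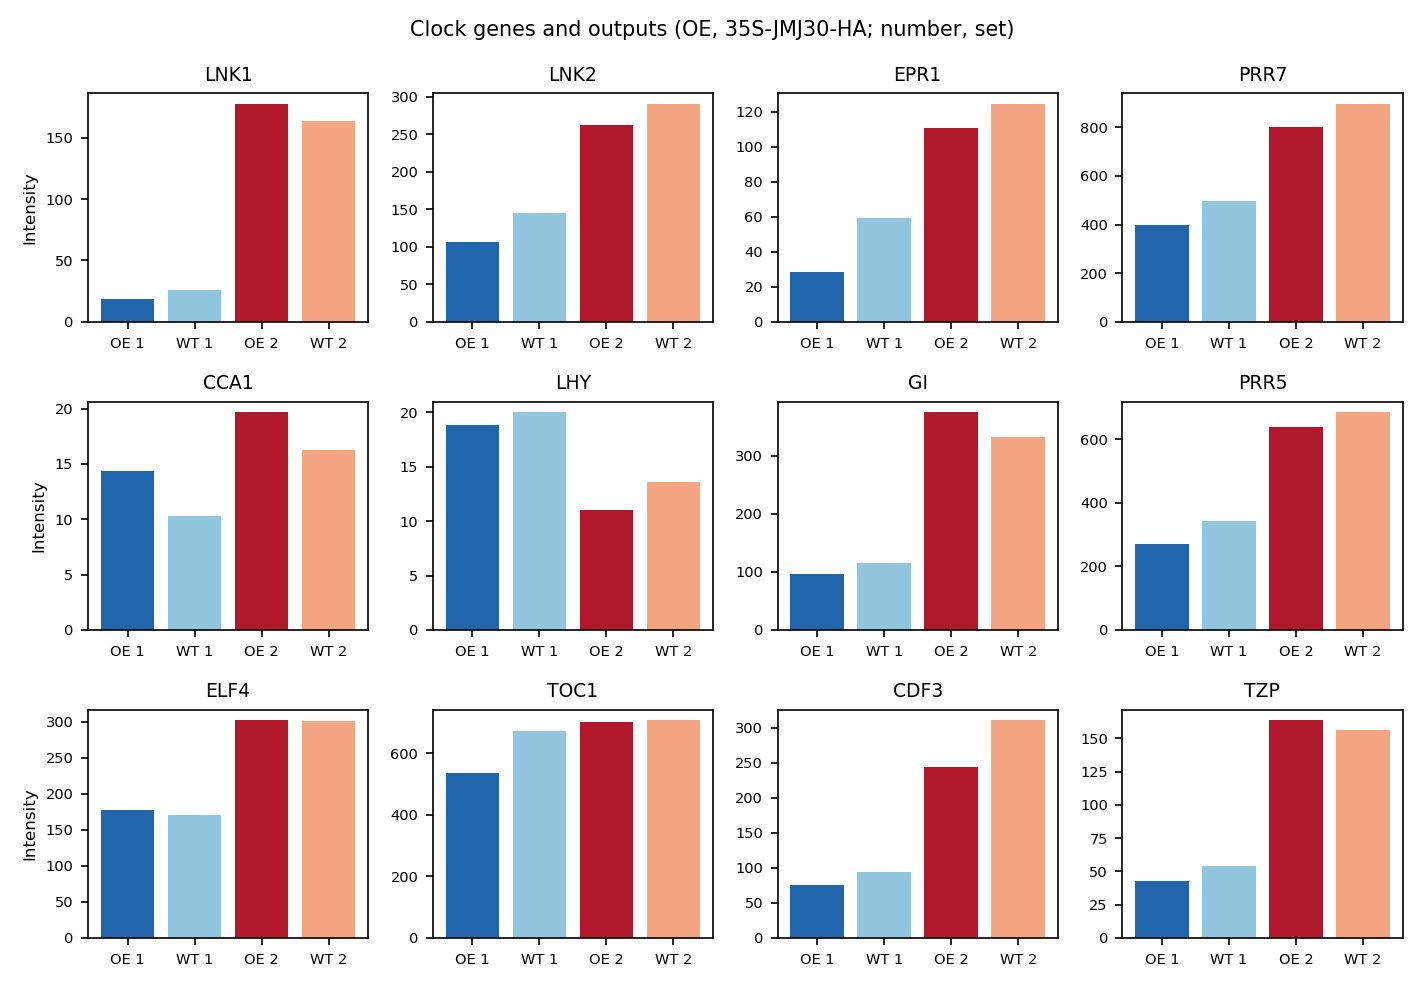
Normalized intensity on each array of 12 clock genes and clock outputs, with set 1 left of set 2 and 35S-JMJ30-HA (OE) left of WT. Each bar is 1 array and axes start at 0. Both set 2 bars exceed both set 1 bars for every gene drawn except LHY, where the order is turned. For TOC1 the gap between the sets is small.

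Small nucleolar RNAs, which guide the methylation and pseudouridylation of ribosomal RNA in the nucleolus, were mostly lower in set 1. Of 29 such loci above the valley (of 61 on the array), 28 were lower in set 1, 21 were called lower (12 at 0.01) and 0 higher. The median log2 difference was -0.85, with -0.90 in 35S-JMJ30-HA and -0.77 in WT, and 8 loci were at least 2-fold lower in both genotypes. The median intensity over the 29 loci was 47.4 in 35S-JMJ30-HA and 45.3 in WT of set 1, against 71.1 in 35S-JMJ30-HA and 64.5 in WT of set 2. The sets did not overlap at 24 loci that were lower in set 1, against 30.8% of all loci above the valley. AT2G20721 had 17.2 and 19.3 in set 1, against 60.2 and 52.8 in set 2 (log2 difference -1.63, SE 0.18, limma adjusted p = 0.00209), and AT3G47342 had 49.7 and 52.4 in set 1, against 142 and 133 in set 2. Many plant small nucleolar RNAs are made from 1 shared precursor. The 29 loci lay in 18 runs of adjacent loci, of which 11 held a called locus, so they are not 29 independent values. Transfer RNA genes, also short noncoding RNAs, lay in the same direction by a smaller amount. Of 64 loci above the valley 56 were lower in set 1, with a median of -0.29 (-0.26 in 35S-JMJ30-HA, -0.28 in WT), and 4 were called lower and 0 higher (0 higher and 2 lower at 0.01). Of the 4 called, 3 lay in a stretch of chromosome 2 described below, which held 5 of the 64 loci. The median over the 59 loci outside it was -0.29. Over all loci above the valley 5.77% were called lower, so the calls do not set transfer RNA genes apart. The sets did not overlap at 50 of the 64 loci, lower in set 1, against 30.8% of all loci above the valley. Both kinds of RNA are short and can overlap other transcripts, and whether a signal came from the mature RNA or a longer one was not tested.

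**Figure D4:**
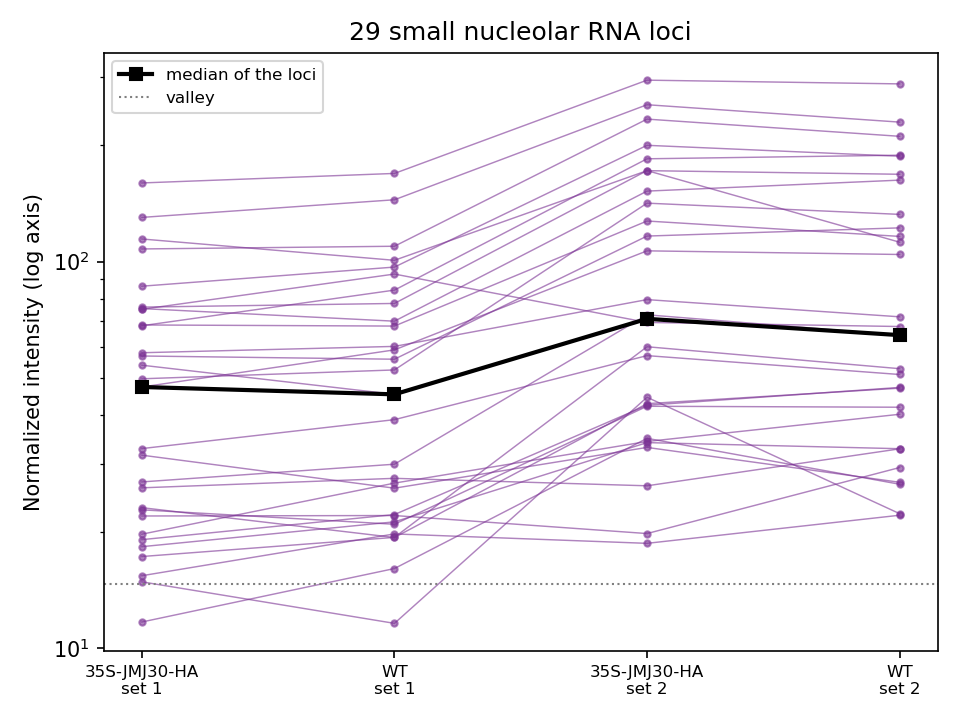
Normalized intensity (log axis) of the 29 small nucleolar RNA loci above the valley on each array. Each thin line is 1 locus, the black squares are the median (47.4 and 45.3 in set 1, 71.1 and 64.5 in set 2), and the dotted line is the valley. Most lines are lower on both set 1 arrays.

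Protein genes of ribosome biogenesis were lower in set 1 by a smaller amount. Of 34 loci, 31 were lower in set 1 with a median of -0.46 (-0.42 in 35S-JMJ30-HA, -0.41 in WT). In this list 11 were called lower and 0 higher, and 2 were lower at 0.01. SWA1, a nucleolar factor of pre-ribosomal RNA processing, had 54.0 and 52.1 in set 1, against 108 and 104 in set 2 (limma adjusted p = 0.0075). RID2, a methyltransferase-like nucleolar protein, had 69.3 and 72.0 in set 1, against 123 and 137 in set 2, and PUM24, an RNA-binding protein of the nucleolus, had 116 and 111 in set 1, against 197 and 206 in set 2. NRPA1, the largest subunit of RNA polymerase I, had 197 and 195 in set 1, against 303 and 309.9 in set 2. The proteins of the finished cytosolic ribosome had a median of -0.01 over 35 loci, with 2 called lower and 0 higher (0 higher and 1 lower at 0.01). The largest of these differences was at RPSAb, with 46.9 and 45.9 in set 1, against 105 and 115 in set 2.

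DNA replication genes were lower in set 1, while the median of mitosis genes lay near 0. Of 51 replication and histone loci, 20 were called lower and 0 higher in set 1 (4 lower at 0.01), with a median of -0.48 (-0.41 in 35S-JMJ30-HA, -0.44 in WT). MCM3, of the helicase that opens DNA for copying, had 111 and 86.5 in set 1, against 235 and 198 in set 2 (log2 difference -1.14, SE 0.17, limma adjusted p = 0.00501). The other subunits of that helicase, read after their values were seen, were called lower too: MCM2 had 144 and 112 in set 1, against 218 and 191 in set 2, MCM4 had 85.0 and 67.7 in set 1, against 134 and 102 in set 2, and MCM6 had 42.8 and 47.1 in set 1, against 87.2 and 74.3 in set 2. MCM5 and PRL, also subunits, were called as well, with log2 differences of -0.58 and -0.79. ORC1B, of the complex that marks replication origins, had 48.4 and 50.5 in set 1, against 109 and 99.8 in set 2, RPA70B, which coats single-stranded DNA, had 78.1 and 81.3 in set 1, against 147 and 191 in set 2, and POLA3, of the primase, had 24.6 and 28.8 in set 1, against 44.8 and 56.7 in set 2. Of the 14 histone loci of the same list, 5 were lower and 9 higher in set 1 with a median of 0.07, from HTA3 at -0.48 to HTB9 at 0.15, and 0 were called. None of the HTR entries, for histone H3, was matched by symbol, so these loci do not stand for all histones. Of 40 mitosis and cytokinesis loci, 1 was called lower (EDE1) and 0 higher (0 higher and 0 lower at 0.01), with a median of -0.08.

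**Figure D5:**
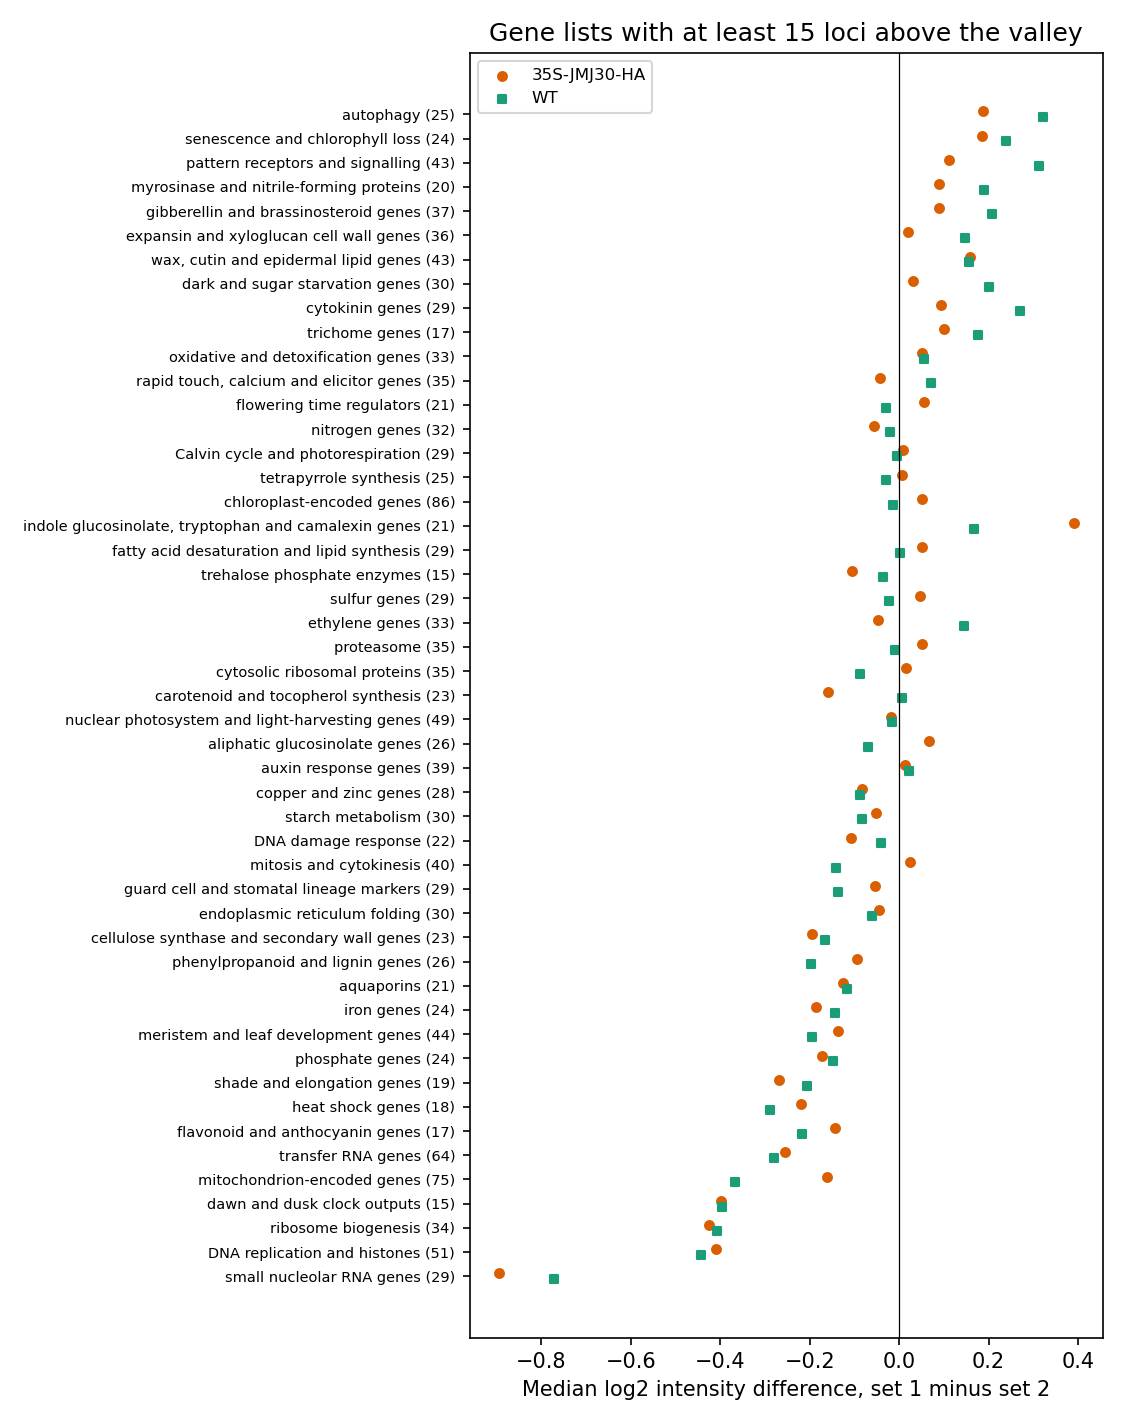
Median log2 difference, set 1 minus set 2, of each gene list with at least 15 loci above the valley (number in brackets), leaving out the 3 hormone lists and the chromosome 2 stretch, in 35S-JMJ30-HA (circles) and WT (squares). Small nucleolar RNA genes lie lowest in both genotypes (-0.90 and -0.77), and autophagy genes have the highest median over both among the lists drawn.

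Heat shock and phosphate genes held further called loci that were lower in set 1. Of 18 heat shock loci, 5 were called lower, all 5 also at 0.01, and 0 higher, with a median of -0.21. HSP70 had 26.1 and 38.9 in set 1, against 104 and 146 in set 2 (log2 difference -1.96, SE 0.17, limma adjusted p = 8.13e-04), HSP90.1, also a chaperone, had 58.3 and 56.1 in set 1, against 153 and 198 in set 2, and HSFA2, a heat-inducible transcription factor, had 8.52 and 10.3 in set 1, against 28.1 and 53.3 in set 2. The set 1 values of HSFA2 lay below the valley, so the size of its difference rests on values near background. Of 24 phosphate loci, 7 were called lower and 1 higher (4 lower at 0.01). SPX1, a phosphate-sensing inhibitor of the starvation response, had 15.1 and 20.18 in set 1, against 50.6 and 59.7 in set 2, the phosphate transporter PHT1;4 had 22.1 and 22.6 in set 1, against 54.2 and 49.5 in set 2, and the acid phosphatase PAP17 had 22.4 and 20.4 in set 1, against 46.1 and 73.6 in set 2. Of 28 copper and zinc loci, 1 was called higher and 5 lower (1 higher and 1 lower at 0.01), with a median of -0.03. CSD2, a copper-zinc superoxide dismutase of the chloroplast, had 119 and 126 in set 1, against 299 and 379 in set 2. Nitrogen genes had 2 called higher and 1 lower among 32 (0 higher and 1 lower at 0.01). These counts were near the shares over all loci above the valley, 4.69% higher and 5.77% lower. The median of the nitrogen list was 0.03, with 18 higher against 14 lower. The called lower locus was AMT1;2, an ammonium transporter, with 39.9 and 27.9 in set 1, against 122 and 119.6 in set 2.

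Shade and leaf development genes were more often lower in set 1, and cell wall genes were called in both directions. Of 19 shade and elongation loci, 13 were lower with a median of -0.21, and 3 were called lower and 0 higher (0 higher and 1 lower at 0.01). HFR1, a bHLH factor that restrains shade growth, had 13.0 and 19.6 in set 1, against 75.0 and 70.1 in set 2, and HB-2, a homeodomain gene induced by shade, had 16.4 and 19.7 in set 1, against 33.6 and 32.2 in set 2. Of 49 photosystem and light-harvesting loci, the 3 called were all LHCB2 genes of the photosystem II antenna, near-identical copies whose signals may be shared. This count was near the 5.77% called lower over all loci above the valley, so it does not set the list apart. LHCB2.2 had 44.9 and 33.1 in set 1, against 103 and 89.2 in set 2, LHCB2.3 had 159.6 and 203 in set 1, against 356 and 438 in set 2, and LHCB2.1 had 36.6 and 43.2 in set 1, against 68.8 and 64.7 in set 2, while the list's median was -0.01 and 2 of them passed at 0.01. Expansin and xyloglucan genes of the cell wall had 6 called higher and 7 lower among 36 (1 higher and 2 lower at 0.01). Expansins EXPA11, with 154 and 234 in set 1, against 362 and 423 in set 2, and EXPB1, with 34.8 and 25.6 in set 1, against 66.1 and 55.3 in set 2, were on the lower side and XTH25 on the higher. Of 44 meristem and leaf development loci, 33 were lower with a median of -0.18, and 6 were called lower and 1 higher (0 higher and 1 lower at 0.01), among them the leaf growth factor TCP17 with 30.3 and 31.2 in set 1, against 61.8 and 63.3 in set 2.

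Genes higher in set 1 outside the hormone lists included surface receptors, cytokinin response regulators and single enzymes of gibberellin metabolism. Genes that respond to jasmonate or salicylic acid may remain among the loci named here and in the following paragraphs. In the same direction, 23 of 39 jasmonate loci and 15 of 27 salicylic acid loci above the valley were called higher, and 0 lower. Whether the named loci belong with those lists was not tested. Of 43 pattern receptor and signalling loci, 10 were called higher and 0 lower, but 1 passed at 0.01, with a median of 0.19 (0.11 in 35S-JMJ30-HA, 0.31 in WT). WAK1, a kinase that binds pectin in the wall and is also known to respond to salicylic acid, had 195 and 207 in set 1, against 45.1 and 42.0 in set 2 (log2 difference 2.21, SE 0.17, limma adjusted p = 6.12e-04), LYM2, a chitin-binding receptor protein, had 299.6 and 311 in set 1, against 170.3 and 175 in set 2, and SERK4, a coreceptor, had 166 and 198 in set 1, against 104 and 84.1 in set 2. Cytokinin genes had 4 called higher and 1 lower among 29 (2 higher and 0 lower at 0.01), beside 4.69% and 5.77% over all loci above the valley. ARR7 had 93.3 and 107 in set 1, against 30.3 and 35.7 in set 2, and ARR6 had 67.6 and 90.9 in set 1, against 25.1 and 20.7 in set 2, both being response regulators that dampen the cytokinin signal. Gibberellin and brassinosteroid genes had 6 called higher and 3 lower among 37 (3 higher and 0 lower at 0.01). GA2OX2, which inactivates gibberellin, had 168 and 160.4 in set 1, against 57.2 and 78.4 in set 2 and was called. GA20OX1, a gibberellin synthesis enzyme whose mean lay below the valley and which was therefore not among the loci tested there, had 19.3 and 19.8 in set 1, against 5.30 and 5.30 in set 2.

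Autophagy genes were mostly higher in set 1 by small amounts. Of 25 loci, 22 were higher with a median of 0.27 (0.19 in 35S-JMJ30-HA, 0.32 in WT), while 2 were called higher and 0 lower (1 higher and 0 lower at 0.01). Over all loci above the valley 4.69% were called higher and 5.77% lower. ATG8E, a ubiquitin-like protein that coats the autophagosome, had 157 and 137 in set 1, against 53.1 and 50.8 in set 2 (limma adjusted p = 0.00187), and ATG8H had 49.0 and 50.2 in set 1, against 25.4 and 29.1 in set 2. Myrosinase and nitrile-forming proteins, which break down glucosinolates in damaged tissue, had 5 called higher and 0 lower among 20 (2 higher and 0 lower at 0.01). MBP1, a myrosinase-binding protein, had 804 and 817 in set 1, against 426 and 427 in set 2, and NAI1, a bHLH factor of endoplasmic reticulum bodies, had 56.1 and 86.3 in set 1, against 27.1 and 29.6 in set 2. Myrosinase-binding proteins are also known to respond to jasmonate. Indole glucosinolate and camalexin genes had 6 called higher and 2 lower among 21 (2 higher and 0 lower at 0.01), with IGMT2, an indole glucosinolate methyltransferase, at 93.3 and 102 in set 1, against 41.2 and 29.8 in set 2 and WRKY33, a regulator of camalexin, at 248 and 226 in set 1, against 455 and 354 in set 2. Oxidative and detoxification genes had 3 called higher and 1 lower among 33 (3 higher and 0 lower at 0.01), beside 4.69% and 5.77% over all loci above the valley. Their median was 0.06 with 18 higher and 15 lower, so the list as a whole did not lie to 1 side. The glutathione transferases GSTF7, with 55.0 and 48.3 in set 1, against 12.1 and 8.84 in set 2, and GSTF2, with 552 and 561 in set 1, against 247 and 230.1 in set 2, were among the called loci. The set 2 values of GSTF7 lay below the valley, so the size of its difference rests on values near background. Wax and cutin genes had 4 called higher and 0 lower among 43 (1 higher and 0 lower at 0.01), among them the fatty acid elongase KCS2 with 55.5 and 56.4 in set 1, against 29.5 and 25.1 in set 2.

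Families read from gene symbols (at least 10 loci above the valley) were compared by the share at least 2-fold apart in both genotypes, beside 0.987% of all loci above the valley that were higher and 0.829% that were lower in set 1. Cyclic nucleotide-gated channels, which admit calcium, had the highest share higher in set 1, 3 of 13. CNGC3 had 130.2 and 128 in set 1, against 32.6 and 34.4 in set 2, CNGC11 had 78.9 and 89.8 in set 1, against 23.2 and 31.5 in set 2, and CNGC10 had 48.4 and 63.3 in set 1, against 19.2 and 15.1 in set 2. MES genes followed with 2 of 12, MES5 and MES7. CRK genes had 2 of 19, CRK14 and CRK15, both on the salicylic acid list. ABC transporters of the G subfamily had 3 of 30, with ABCG27 at 53.1 and 56.1 in set 1, against 16.2 and 12.7 in set 2. In the other direction, HSP genes had 2 of 18. Such shares rest on 1 to 3 genes each. CNGC3 (AT2G46430) and CNGC11 (AT2G46440) lie close together by locus code, so they may not be independent values, and shared signal was not tested.

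Loci of the mitochondrial genome and of its nuclear copy differed too. Of 75 mitochondrion-encoded loci above the valley, 21 were called lower and 4 higher in set 1 (0 higher and 5 lower at 0.01), with medians of -0.16 in 35S-JMJ30-HA and -0.37 in WT. Chromosome 2 carries a nuclear insertion of mitochondrial DNA. A stretch of 127 loci from AT2G07664 to AT2G07835, chosen after its values were seen and including nuclear genes such as MCM5, had 36 of 82 loci called lower and 2 higher (0 higher and 13 lower at 0.01), with a median of -0.56. The transfer RNA locus AT2G07743 in it had 19.7 and 20.8 in set 1, against 61.9 and 67.4 in set 2. Copies that are nearly identical in sequence share signal, so the organelle and its nuclear copy cannot be told apart here. Pseudogenes had 5 of 172 loci called higher and 41 lower in set 1 (1 higher and 9 lower at 0.01), 6 of the 41 in that stretch, and a median of -0.32 over the 162 loci outside it. Transcribed pseudogenes had 11 of 155 called higher and 13 lower (1 higher and 4 lower at 0.01), 7 of the 13 in that stretch, and a median of 0.10 over the 134 loci outside it. Chloroplast-encoded loci had a median of 0.02 over 86 loci, with 5 called lower and 0 higher (0 higher and 1 lower at 0.01).

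Several lists with many measured members lay near 0. Proteasome subunits had a median of -0.00 over 35 loci with 0 called, endoplasmic reticulum folding genes -0.08 over 30 with 0 called, and Calvin cycle genes 0.03 over 29 with 1 called and 0 at 0.01. Protein-coding loci showed little relation to gene length, with a median of 0.05 for the 832 loci of up to 1000 bases and -0.04 for the 2821 loci over 4000 bases. The spread of differences was larger at low levels. When loci above the valley were divided by mean intensity into 5 groups of equal size, the SD was 0.60 in the lowest group and 0.22 in the highest, and 749 loci of the lowest group were called, against 91 of the highest.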

How the data were processed

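Total RNA of 4 seedling samples was measured on one-colour NimbleGen arrays labelled with Cy3, per the labels. For 37118 transcript models the authors deposited a normalized intensity, and the submitters' processing notes name RMA, with no version. Since values reach 4400 they were read as linear, although RMA usually returns logarithms, and log2 was taken here with no pseudocount. The model with the highest mean stood for each of 32627 loci, of which 31993 were named from the TAIR10.1 table of RefSeq genes. The table gave gene names, the symbols and synonyms by which list entries were matched, and gene lengths. It also gave the kind of each locus, such as small nucleolar RNA, transfer RNA or pseudogene. Neighbours were read from the order of locus codes. Promoter motifs were not analysed here.

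The set was fitted with the genotype as a block in limma 3.58.1 under R 4.3.3 (lmFit, eBayes, two-sided), with Benjamini-Hochberg adjustment over all loci and a threshold of 0.05. Tables and plots were made with pandas 2.3.3 and matplotlib 3.10.9. With 4 arrays and 3 coefficients, 1 residual degree of freedom remained. The fit was tested on simulated data, where it returned the differences put in. Its share of false calls was above the nominal 5% when the variance prior was estimated from the data and near 5% when the true prior was used, so adjusted p-values here are somewhat too small. Precision is limited by how few arrays there are. The labels call the arrays biological replicates.

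Named genes were those called over all loci, the 15 with the largest difference in each direction outside the hormone lists (unadjusted p below 0.05, sets not overlapping, the same direction by at least 2-fold in both genotypes, higher set above the valley), and up to 4 members of each list with the largest absolute moderated t. Further genes are MCM2, MCM4, MCM5, MCM6, PRL, NRPA1, PRR7, CCA1, LHY, TOC1, JMJD5, PAP17 and PUB18 and the members of symbol families, chosen after their values were seen. The sets, lists and rules were chosen with earlier results of these data known. Over all lists, 220 entries with no match or an ambiguous match by symbol were left out, among them 4 jasmonate entries. Many entries of the cytosolic ribosomal protein and ribosome biogenesis lists were also among them, so these lists are incomplete. A further 15 entries were dropped because they matched the wrong gene. Alternatives were a trended and robust prior, only loci above the valley, the mean of models, log2(value + 16), quantile normalization, other thresholds, no block, and leaving out each array.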

Additional observations from a re-analysis of the deposited data

Results flagged for a closer look

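PRXR1, a class III peroxidase, was the 1 named gene whose set difference had opposite signs in the genotypes, with log2 differences (set 1 minus set 2) of 0.16 in 35S-JMJ30-HA and -0.06 in WT. The difference between the genotypes was not tested.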

How the results depend on the processing

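The count of loci called between the sets depended strongly on the settings. Against 4 of 32627, it was 3553 with a trended and robust prior, 1854 among loci above the valley, 1847 with log2(value + 16), 153 at an adjusted p below 0.10, 87 without the genotype block, and 0 with the mean of models or quantile normalization. Alternatives added after seeing the data were the fits that leave out 1 array, since 3 arrays leave no residual degree of freedom with both terms, and a stricter threshold. With the set as the single term, leaving out 1 array gave 0 to 0 calls over all loci and 198 to 1521 above the valley, where the lowest counts came without the WT array (198) or the 35S-JMJ30-HA array (246) of set 2, against 1361 and 1521 without the WT or 35S-JMJ30-HA array of set 1. Above the valley 464 passed 0.01. The genotype comparison, which has the replicate block, had 0 calls with the block and 0 with no replicate block, against 65 with a trended and robust prior, 3 above the valley (3 at 0.01) and 3 with log2(value + 16). Loci at least 2-fold apart in both genotypes numbered 229 higher and 181 lower in set 1, against 619 and 717 at 1.5-fold, 45 and 14 at 4-fold, and 106 and 51 with log2(value + 16), which compresses low values by construction. Of 365 list medians recomputed under the alternatives, 132 were marked as moved against the main fit and 233 as the same. A change of sign occurred in 23, in 17 lists whose medians were at most 0.17 in size, so those lists have no settled direction. The difference of PRXR1 (0.05) was -0.035 without the 35S-JMJ30-HA array of set 2. Other causes of these shifts were not tested.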
